A study of Mus musculus with 9 samples.

Results

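Myeloid precursors (MPs) are the marrow-derived cells of the macrophage lineage from which osteoclasts (OCs), the multinucleated cells that resorb bone, are formed. The state described here is that of MPs kept in CSF-1 alone, as read on 3 arrays of the 9 in the series, and it was taken as every array whose title names CSF-1 alone. Bone marrow of C57Black6 mice had been flushed and grown on plastic for 3 days in CSF-1, at 100 ng/ml by the labels whereas the methods of the study state a lower dose, in medium with serum, and the enriched precursors had then been seeded at 100000 cells/ml in the medium of a commercial osteoclast precursor kit. These steps were common to all groups of the series, and the labels name no deletion or transgene in any of them. The labels gave no culture time for CSF-1 alone after seeding, and they did not say whether replicates 1, 2 and 3 came from separate mice or cultures, so the spread given here is between arrays and may be technical. The cells were marrow enriched by culture, with no sorting step in the labels. Total RNA was hybridised to Mouse Exon 1.0 ST arrays, and the values are log2 signals for 23332 transcript clusters, of which the clusters with a single gene symbol gave 14860 genes.

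CSF-1 (M-CSF) is the growth factor that keeps cells of this lineage alive and dividing, and it acts through the receptor tyrosine kinase encoded by Csf1r. PU.1, encoded by Spi1, is the ETS-family transcription factor (TF) that sets up the myeloid program, Csf1r included. Cells in this state still carry RANK and the ITAM adaptors Tyrobp (DAP12) and Fcer1g (the common Fc receptor gamma chain), and they can become either macrophages or, once RANKL is given, OCs.

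Signals of different clusters are not amounts of RNA on a common scale, since probes differ in how brightly they respond. Each gene was placed by where its signal lay within its own array. Such a rank still sets clusters with different probes side by side, so it keeps the differences between probes. A gene was called high when it lay above the upper quartile of all genes on each array, at 7.79, 7.87 and 7.85 for replicates 1, 2 and 3, and 23.5% of the 14860 genes (3499) were high on all 3. The low end was set from 808 olfactory, vomeronasal and trace-amine receptor genes, sensory receptors used here as an empirical reference for low signal. Their median signals were 1.99, 2.00 and 1.98, and their 95th percentiles were 4.46, 4.35 and 4.33. A gene at or below that 95th percentile on all 3 arrays was called near the low end, which took in 36.1% of genes (5371). The 808 receptor genes are among the 14860, and most of them fall there by the way the cutoff was set. They thus raise the 36.1%. The remaining 5990 genes lay between, which does not show that their RNA was present. Of 36 genes of tissues such as liver and muscle, 10 lay between. A low signal does not show that an RNA was absent. Rpl4, a ribosomal protein gene of every cell, read 2.73, 4.12 and 3.39 and was near the low end, and of 15 ribosomal protein genes with a cluster of their own, looked at after their values were known, 4 were high and 2 near the low end. In bulk RNA, fewer cells of a type and less RNA per cell cannot be told apart.

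**Figure D1:**
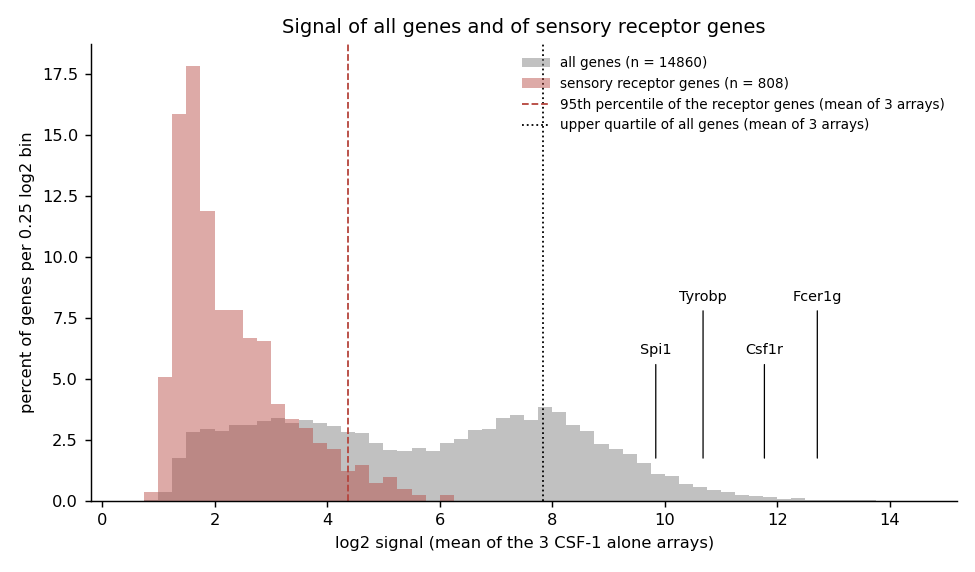
The log2 signal of all 14860 genes (grey) and of the 808 sensory receptor genes (red) is shown as the percent of each set in bins of 0.25 log2, each gene at its mean over the 3 CSF-1 alone arrays. Spi1, Tyrobp, Csf1r and Fcer1g lie between 9.84 and 12.71, right of the upper quartile (dotted), whereas the receptor genes lie mainly left of their own 95th percentile (dashed).

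The 4 genes taken as lineage markers were high on every array. Fcer1g read 12.74, 12.72 and 12.67 in replicates 1 to 3 (12.71 ± 0.036, SD, n = 3), which was the 99.9th percentile of the array. Csf1r read 11.60, 11.86 and 11.85 (11.77 ± 0.15), at the 99.6th percentile. Tyrobp read 10.68, 10.73 and 10.63 (10.68 ± 0.050). Spi1 read 9.87, 9.75 and 9.90 (9.84 ± 0.079), at the 95.4th percentile. Each lay at or above the 95.4th percentile on average, and Csf1r alone had replicate 1 set apart, below the other two by more than they differed from each other.

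The promoters were searched for the PU box, the short element that PU.1 is known to prefer. The letters GAGGAA, or TTCCTC on the opposite strand, were sought from 250 bases before to 50 after the start of each gene (RefSeq, GRCm38.p6). They were found in 26.9% of 11894 promoters, in 27.8% of 2897 promoters of high genes and in 28.1% of 4142 promoters of genes near the low end. Among pan-macrophage genes they were found in 17 of 24 promoters (70.8%), and among lysosomal genes in 9 of 20. Itgam and Cybb are shown because they are macrophage genes whose matches lie close together or close to the start, with the matches in capitals. The stretch of Itgam, which encodes the integrin chain CD11b, is chr7:128062536-128062689, + strand, and that of Cybb, which encodes the catalytic chain of the phagocyte oxidase, is chrX:9469290-9469335, - strand.
Itgam: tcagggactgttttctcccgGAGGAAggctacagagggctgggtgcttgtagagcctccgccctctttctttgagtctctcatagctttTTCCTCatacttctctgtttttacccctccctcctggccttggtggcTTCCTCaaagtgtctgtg
Cybb: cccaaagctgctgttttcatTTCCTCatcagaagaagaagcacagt
Both genes were at the top of the array. Itgam read 11.05, 11.13 and 11.13, and Cybb read 11.57, 11.76 and 11.70. A match of letters is a description, and it does not show that PU.1 was bound there.

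The brightest genes on these arrays included many of the lysosome and of phagocytes. Among the 20 highest mean signals, 6 were genes of the lysosome list, namely Ctsd, Psap, Ctsb, Ctss, Grn and Lgmn, and 5 were pan-macrophage genes, namely Gpnmb, Ctss, Laptm5, Cd68 and Lgals3. Ctsd, the aspartic protease cathepsin D, read 13.43, 13.44 and 13.42. Psap, the precursor of the saposins that help to degrade sphingolipids, read 13.42, 13.34 and 13.28. Fth1, the iron-storing ferritin heavy chain, had the highest mean of all genes, at 13.69, 13.73 and 13.81. Ccl3 (12.55 ± 0.030, SD, n = 3) and Ccl9 (12.47 ± 0.035), both CC chemokines made by macrophages, were also among the 20. The others were Actb, Aldoa, Cdc42, B2m, Vim, Fcer1g and Cst3, that is, genes of the cytoskeleton, glycolysis, MHC class I, the Fc receptor and a cathepsin inhibitor. No gene among the 20 had a range over the 3 arrays above 0.23.

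Pan-macrophage genes were high almost without exception. Of 29 measured, 26 were high, against 23.5% of all genes, none was near the low end, and their median percentile was 98.9. Gpnmb, a transmembrane glycoprotein of lysosome-rich macrophages, had a mean of 12.99 ± 0.015 (SD, n = 3). Cd68, a lysosomal membrane glycoprotein used as the standard macrophage stain, read 12.67, 12.63 and 12.63. Adgre1, which encodes F4/80, read 11.07, 11.39 and 11.32. Ptprc, the leukocyte-wide phosphatase CD45, read 10.31, 10.30 and 10.26. The 3 members that were not high were Mertk, Clec7a and Aif1. Mertk, a receptor for apoptotic cells, read 7.32, 7.49 and 7.42, just under the quartile. Clec7a, the beta-glucan receptor dectin-1, read 7.65, 6.32 and 6.08, so that replicate 1 stood above the other two. Aif1 (IBA1) read 5.58, 5.90 and 6.03.

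Genes that mark blood monocytes were less uniform, and replicate 1 stood apart in them. Of 12 measured, 3 were high (Emilin2, Ms4a6c and Gsr) and 3 were near the low end (Treml4, Plac8 and Fn1), against 23.5% and 36.1% of all genes. The share that was high was thus close to that of all genes, and the median percentile was 54.9. Ccr2, the chemokine receptor by which inflammatory monocytes leave the marrow, read 6.54, 7.47 and 7.51. Cx3cr1, the fractalkine receptor of patrolling monocytes and resident macrophages, read 7.16, 8.80 and 8.37, and was high on replicates 2 and 3 alone. Cd300e, an activating receptor of monocytes, read 5.67, 6.80 and 7.03. In 11 of the 12 genes replicate 1 was below both other arrays, as it was in 39.5% of all genes, with Treml4 as the exception.

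Most genes that mark macrophages of particular tissues lay near the low end. Of 19 measured, 11 were near the low end and 3 were high, against 36.1% and 23.5% of all genes. Timd4, a phosphatidylserine receptor of resident peritoneal and liver macrophages, read 3.12, 2.98 and 2.97. Vsig4 and Clec4f, known from Kupffer cells, had means of 2.42 ± 0.11 and 2.99 ± 0.15 (SD, n = 3). Sall1 and Tmem119, both known from microglia, had means of 3.58 ± 0.099 and 3.92 ± 0.22. The 3 high members were Folr2, Siglec1 and Hpgd. Folr2, a folate receptor of resident macrophages, read 10.46, 10.95 and 11.07. Siglec1 (CD169), a sialic acid-binding lectin, read 9.15, 10.64 and 10.59, again lowest in replicate 1. Of the complement genes, C1qa, C1qb and C1qc, which encode the chains of C1q, and the anaphylatoxin receptor gene C3ar1 were high, with means between 10.16 and 12.26. Cfb, encoding factor B of the alternative pathway, read 3.97, 4.54 and 4.45 and was not.

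How many markers of the other cells of marrow lay near the low end differed by list. All 13 genes of mast cells, basophils and eosinophils and all 10 erythroid genes were near the low end, against 36.1% of all genes. The mast cell protease Cpa3 read 2.21, 2.18 and 2.14, and the eosinophil gene Epx read 3.22 on every array. Of the erythroid genes, Epor, the erythropoietin receptor, was the highest, at 4.17, 4.35 and 4.33. The erythroid TFs Gata1 and Klf1 had means of 3.49 ± 0.15 and 3.34 ± 0.29 (SD, n = 3).

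Granulocyte genes were not high in any case. Of 14 measured, 8 were near the low end, against 36.1% of all genes. Among them were the neutrophil granule genes Ltf, Lcn2, Camp and Ngp and the calcium-binding S100a8 and S100a9. S100a8 read 2.04, 2.85 and 2.23, and S100a9 read 2.68, 2.46 and 2.28. Csf3r, the receptor for G-CSF, lay between, at 6.14, 6.04 and 5.80. Mmp8 and Padi4, a collagenase and a histone-modifying enzyme of neutrophils, were the highest of the list and were lowest in replicate 1: Mmp8 read 4.94, 6.95 and 6.78, and Padi4 read 5.29, 6.59 and 6.35.

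Of 13 B cell genes none was high and 8 were near the low end, against 23.5% and 36.1% of all genes. Ms4a1 (CD20) read 2.17, 2.25 and 2.49, and Cd79b, a signalling chain of the B cell receptor, was the highest at 4.78, 5.72 and 5.56. Of 21 T and NK cell genes 15 were near the low end. Cd3e and Cd3g, signalling chains of the T cell receptor complex, had means of 3.73 ± 0.12 and 1.75 (SD, n = 3), the same value of 1.75 being read for Cd3g on every array. The NK receptor Ncr1 read 1.61, 1.73 and 1.75. Il7r and Cd28 were the 2 high members, and Cd2, Cd5, Bcl11b and Tbx21 lay between. Il7r, the IL-7 receptor alpha chain, read 10.34, 10.49 and 10.53, and Cd28, the costimulatory receptor, read 10.60, 10.13 and 10.07. The mean percentile of Il7r was 97.6, while the CD3 genes measured (Cd3d, Cd3e and Cd3g) lay near the low end.

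Of 18 stem and progenitor genes, 9 were near the low end, against 36.1% of all genes, 8 lay between and 1 was high. Flt3, the receptor of early lymphoid and dendritic progenitors, read 2.87 on all 3 arrays, and Myb, a TF of cycling progenitors, read 3.79, 3.66 and 3.91. Mpo, Elane and Prtn3, granule genes of granulocyte-monocyte progenitors, had means of 4.32, 4.62 and 4.90 and lay between. Cd93, which is known from early progenitors and from mature myeloid and endothelial cells alike, was the only high member, at 11.27, 11.34 and 11.24. Kit, the stem cell factor receptor, read 8.36, 5.92 and 5.92. It was high in replicate 1 alone. Cd34 went the other way, at 5.07, 6.87 and 6.61.

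Among dendritic cell and MHC class II genes, 3 of 16 were high and 6 were near the low end. Both shares, 18.8% and 37.5%, were close to the 23.5% and 36.1% of all genes. Cd74, the invariant chain, read 8.77, 8.70 and 8.74, H2-Ab1 read 8.54, 8.71 and 8.69, and H2-Aa read 8.33, 8.16 and 8.15. The genes that mark dendritic cells themselves were lower. Clec9a and Xcr1, of cross-presenting dendritic cells, had means of 2.01 ± 0.14 and 3.56 ± 0.31 (SD, n = 3), and Zbtb46, a TF of conventional dendritic cells, read 5.24, 5.30 and 5.30. The costimulatory genes Cd80, Cd86 and Cd40 lay between, with means of 6.73, 5.82 and 6.06.

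Of 9 megakaryocyte and platelet genes, Vwf was high, at 8.54, 8.26 and 8.26, and the chemokine gene Pf4 lay near the quartile, at 7.96, 7.81 and 8.03. Near the low end were 3 of the 9, a share of 33.3%, close to the 36.1% of all genes. They were the platelet glycoprotein genes Gp9 and Gp5, with means of 3.52 and 3.26, and Selp, with a mean of 3.09. Itga2b, at 4.53, 4.49 and 4.49, lay between, as did Ppbp, Treml1 and Gfi1b, with means of 4.87, 5.57 and 5.18. Of 23 genes of stroma, osteoblasts and endothelium none was high and 15 were near the low end, against 23.5% and 36.1% of all genes. The osteoblast genes Sp7 and Ibsp had means of 2.08 and 1.94, and the stromal chemokine Cxcl12 a mean of 2.90. Kdr, a VEGF receptor known from endothelium, was the highest, at 7.16, 7.79 and 7.79, while the endothelial genes Cdh5, Emcn and Tek were near the low end. Tnfsf11, the gene of RANKL itself, read 5.48, 5.31 and 5.62, and Tnfrsf11b, its decoy receptor OPG, read 3.72, 3.71 and 3.71. Of 36 genes of tissues such as liver, muscle, eye and testis, none was high and 26 were near the low end. Of 2 Y-linked genes, Eif2s3y was high, at 8.33, 8.38 and 8.22, and Kdm5d read 6.64, 6.76 and 6.68.

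**Figure D2:**
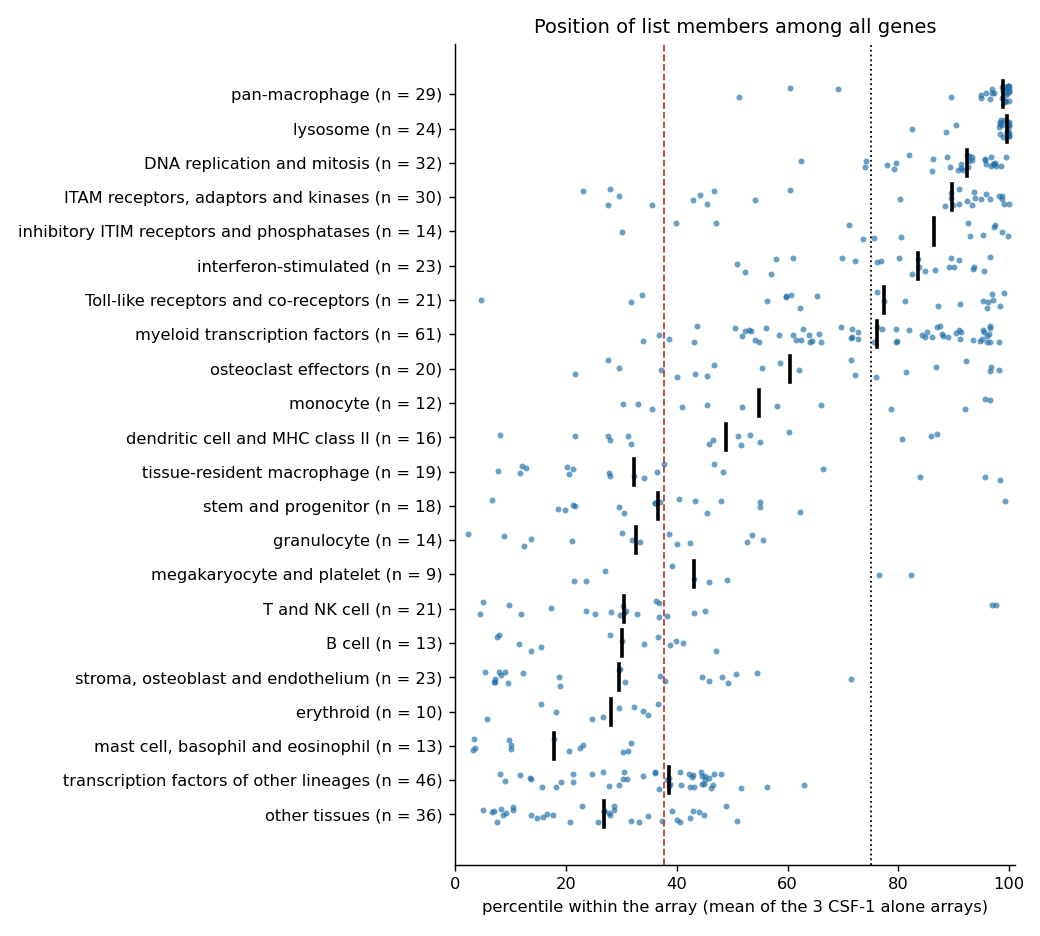
Each point is a gene of a list, placed at its percentile within the array (mean of the 3 CSF-1 alone arrays), and the black bar is the median of the list. Pan-macrophage and lysosomal genes have medians of 98.9 and 99.6, right of the dotted line at the upper quartile, while erythroid and mast cell lists have medians of 28.1 and 17.9, left of the dashed line that marks the low end.

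Receptors for growth factors and cytokines covered a wide span. In all, 16 of 34 were high and 7 near the low end, against 23.5% and 36.1% of all genes. Besides Csf1r, the highest were Il10rb, a chain of the IL-10 receptor family (11.27 ± 0.025, SD, n = 3), Il7r, Ifngr2, Tnfrsf1b and Ifnar2. Tnfrsf11a, which encodes RANK, the receptor through which RANKL acts, read 8.17, 8.31 and 8.33 and was high in these cells, which had been given no RANKL. The shared beta chain of the GM-CSF and IL-3 receptors, Csf2rb, read 8.56, 8.55 and 8.52. Both chains of the type I interferon receptor were high, with Ifnar1 at 9.32, 9.23 and 9.16 and Ifnar2 at 9.47, 9.49 and 9.52. Both chains of the interferon gamma receptor and both TNF receptors, Tnfrsf1a and Tnfrsf1b, were high too. At the other end were Il2ra, Il18r1, Osmr and Il1r2, with means between 1.93 and 2.53. Il1r1, the signalling IL-1 receptor, read 4.50, 2.04 and 2.48, above the low end in replicate 1 alone.

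Of the ligands for such receptors, 3 of 16 were high and 7 near the low end. Those shares, 18.8% and 43.8%, stood against 23.5% and 36.1% of all genes. The high ligands were Tgfb1 (10.64 ± 0.079, SD, n = 3), Tnf (9.84 ± 0.087) and Igf1 (9.39 ± 0.14). Csf1 itself lay between, at 5.82, 5.57 and 5.57, and Il34, the other ligand of the CSF-1 receptor, was near the low end, at 4.12 ± 0.070. Csf2, Csf3, Il3 and Il7 were near the low end, with means between 1.82 and 2.77.

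**Figure D3:**
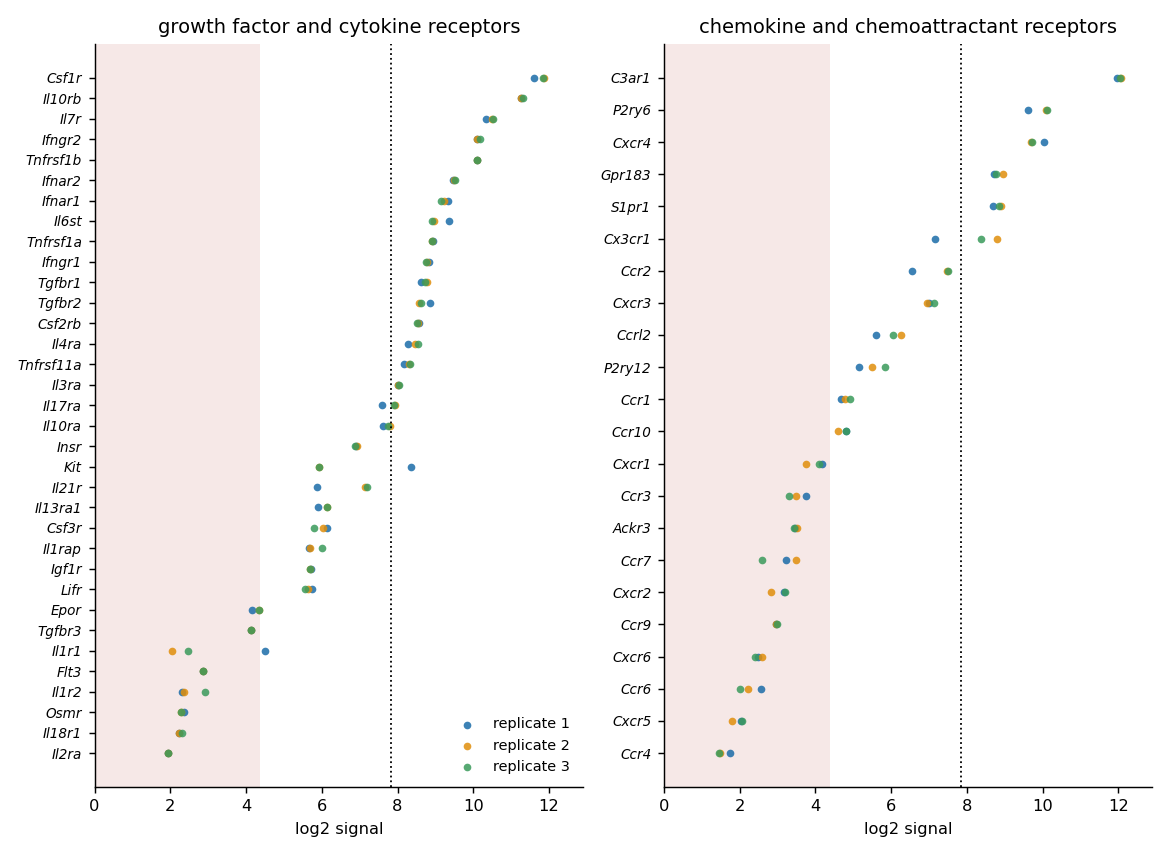
The log2 signal of each growth factor and cytokine receptor gene (left, n = 34) and each chemokine and chemoattractant receptor gene (right, n = 22) is shown on each of the 3 CSF-1 alone arrays, with genes ordered by mean. The shaded band ends at the 95th percentile of the sensory receptor genes and the dotted line is the upper quartile, and Kit, Il1r1, Il21r and Cx3cr1 are examples in which replicate 1 lies well away from the others.

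Of 22 chemokine and chemoattractant receptors, 5 were high and 10 near the low end, against 23.5% and 36.1% of all genes. The share that was high, 22.7%, was thus close to that of all genes. Of the 5, C3ar1, the receptor for complement C3a, read 11.97, 12.06 and 12.05, and Cxcr4, which retains cells in marrow, read 10.03, 9.69 and 9.71. P2ry6, a receptor for UDP, and the lipid receptors Gpr183 and S1pr1, for oxysterols and sphingosine 1-phosphate, were the remaining 3. The lymphocyte receptors Ccr4, Cxcr5, Ccr6 and Cxcr6 lay near the low end, with means between 1.56 and 2.49, and so did the neutrophil receptors Cxcr1 and Cxcr2.

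Of 21 Toll-like receptors and partners, 10 were high and 3 were near the low end, against 23.5% and 36.1% of all genes. Cd180, a TLR4-like regulator of LPS responses, read 11.17, 11.21 and 11.18. Tlr13, which recognises bacterial ribosomal RNA in the mouse, read 10.63, 10.90 and 10.78. The LPS receptor genes Cd14 and Tlr4 were both high, at 10.20 ± 0.12 and 9.19 ± 0.081 (SD, n = 3), as were the RNA sensors Tlr7 and Tlr8. Tlr5, Tlr12 and Tlr11 were the 3 near the low end, and Tlr2 and Tlr9 lay between, at 6.76 ± 0.29 and 6.69 ± 0.053.

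In ITAM signalling, receptors without a signalling tail borrow Tyrobp or Fcer1g, which call in the kinase Syk. Of 30 genes 19 were high and 5 near the low end, against 23.5% and 36.1% of all genes. Of the receptors, Cd300lb (11.18 ± 0.052, SD, n = 3), Clec4d (10.97 ± 0.14), Trem2 (10.99 ± 0.065) and Clec5a (10.13 ± 0.050) were the highest. Trem2, a lipid-sensing partner of Tyrobp, read 11.05, 10.92 and 10.99. Syk read 9.12, 9.18 and 9.21, and Plcg2, the phospholipase it acts on, read 8.88, 8.99 and 9.26. Oscar, the OC-associated partner of Fcer1g, was near the low end, at 3.46, 3.87 and 3.82, with Hcst (DAP10), Treml4, Siglech and Trem3. Inhibitory partners were also high, in 8 of 14 cases. Sirpa, the receptor for the CD47 signal, read 12.19, 12.15 and 12.17, and the phosphatases Ptpn6 (SHP-1) and Inpp5d (SHIP1) had means of 10.98 ± 0.040 and 10.41 ± 0.086.

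Of 22 integrin and adhesion genes, 12 were high, against 23.5% of all genes. Itgb1 and Itgb2, the beta chains of the fibronectin-binding and the leukocyte integrins, had means of 11.62 ± 0.050 and 11.40 ± 0.045 (SD, n = 3), and the tetraspanin gene Cd9 a mean of 11.84 ± 0.090. Itgav, the alpha chain of the vitronectin receptor, read 9.54, 10.01 and 10.00. Its OC partner Itgb3 lay between, at 6.98, 6.42 and 6.36. Itgal, the alpha chain of LFA-1, read 6.05, 7.85 and 7.95. Replicate 1 was below both other arrays in 16 of the 22 genes, as it was in 39.5% of all genes.

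Of 26 scavenger and efferocytosis genes, 11 were high and 7 near the low end, against 23.5% and 36.1% of all genes. Lrp1 and Cd36, receptors for lipoproteins and oxidised lipid, had means of 11.53 ± 0.21 and 11.34 ± 0.015 (SD, n = 3). Mrc1, the mannose receptor CD206, read 10.64, 9.98 and 9.93, and Msr1, the class A scavenger receptor, read 9.89, 10.29 and 10.50. Axl, a receptor tyrosine kinase that binds Gas6 on dead cells, read 7.48, 8.97 and 8.95, and the cholesterol exporter Abca1 read 8.55, 7.44 and 7.32. Replicate 1 was thus the lowest for Axl and the highest for Abca1. Olr1, Timd4, Stab2 and Tyro3 were the lowest, with means between 1.92 and 3.69.

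Among the TFs listed, the high ones were all in the myeloid set. Of 61 TFs known from myeloid cells or OCs, 30 were high and 2 were near the low end, against 23.5% and 36.1% of all genes. Of 46 TFs of other lineages, none was high and 21 were near the low end. Both sets were drawn up with earlier results of these data known. The second set also held TFs of granulocytes (Cebpe and Gfi1), resident macrophages (Sall1, Spic and Gata6) and progenitors (Myb). The split between the sets therefore depends on how genes were assigned. The highest myeloid TFs were Zeb2 (10.65 ± 0.055, SD, n = 3), Atf3 (10.14 ± 0.27), Bhlhe41 (10.11 ± 0.026), Id2 (10.14 ± 0.39), Cbfb (10.06 ± 0.047) and the ETS factor Fli1 (9.97 ± 0.069). Irf8, which directs progenitors to the monocyte fate, read 8.87, 8.94 and 9.05, and Runx1, a TF required for blood formation, read 8.52, 8.66 and 8.78.

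Several of the myeloid TFs have known roles in OC formation. Mitf, a partner of PU.1, read 7.90, 7.91 and 7.91 and was high by a narrow margin. Nfatc1, the TF by which RANKL drives OC genes, read 7.78, 7.88 and 7.98 and fell just under the quartile of replicate 1. Fos, also required for OCs, read 6.26, 6.26 and 6.55. The C/EBP genes Cebpa and Cebpb had means of 7.03 and 7.67, and Myc read 8.94, 8.84 and 8.78. Irf8 and Bcl6, both known to restrain OC formation, were high, and Bcl6 read 9.30, 9.21 and 9.17. Mycl (4.06 ± 0.18, SD, n = 3) and Eomes (4.29 ± 0.017) were the 2 near the low end, and Irf4 and Prdm1 lay just above it, at 4.46 and 4.88. Id3, named after its values were seen, read 4.33, 6.97 and 6.93.

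Among TFs of other lineages, the haematopoietic factor Tal1 was the highest, at 7.05, 6.88 and 6.94. Gata2, of stem and mast cells, read 4.26, 4.31 and 4.13, and Gata3 and Lef1, of T cells, read 3.82, 3.82 and 3.83 and 3.78 on every array. Pax5 and Ebf1, of B cells, had means of 4.47 and 2.48. Pax6, Sox2 and Neurod1, of neural and epithelial tissue, were the lowest with Sp7, Tbx5 and Ebf1. With the 95th percentile of the genes of other tissues as the low end, 37 of the 46 fell near it in place of 21. That band ends higher, at 5.20, 5.24 and 5.33 in replicates 1 to 3. It therefore takes in more of all genes too. The count over all genes stayed within 1.5 times of 5371, while that of these TFs did not. No share of all genes in that band is given here.

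Of 20 OC effector genes, 6 were high and 3 near the low end, against 23.5% and 36.1% of all genes, with a median percentile of 60.4. The share that was high was thus close to that of all genes. The high ones were Tcirg1, the a3 subunit of the proton pump (10.80, 10.62 and 10.68), Plekhm1 (10.08, 10.21 and 10.14), Clcn7 (10.09, 10.12 and 10.06), its beta chain Ostm1 (9.37, 9.32 and 9.30), the anion exchanger Slc4a2 (8.76, 8.70 and 8.69), and Tnfrsf11a (RANK). Ctsk, Acp5 and the fusion genes were not high. Ctsk, the collagenase cathepsin K, read 7.05, 6.89 and 6.70, Acp5 (TRAP) read 6.28, 6.37 and 6.19, and the fusion genes Dcstamp and Ocstamp had means of 4.90 ± 0.22 and 5.30 ± 0.37 (SD, n = 3). Calcr, the calcitonin receptor, and Car2, the carbonic anhydrase that supplies protons, were near the low end with Oscar, at means of 3.57 and 3.10. Atp6v0d2, a proton pump subunit known from OC fusion, read 9.13, 6.98 and 6.98, so that replicate 1 was high and the other two were not.

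All 24 lysosomal genes were high, against 23.5% of all genes, with a median percentile of 99.6. Their means ran from 8.36 for Ctsh, an aminopeptidase, to 13.43 for Ctsd, and the 3 lowest were Ctsh, Mcoln1 and Glb1. The list held acid proteases, glycosidases, the cholesterol transporters Npc1 and Npc2, and the membrane proteins Lamp1 and Lamp2. The widest range in the list was that of Ctsh, at 8.12, 8.53 and 8.43.

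Genes of cell division were high. Of 32 genes of DNA replication and mitosis 29 were high and none was near the low end, against 23.5% and 36.1% of all genes. Mki67, the proliferation antigen Ki-67, read 9.85, 9.92 and 9.96, Top2a, the topoisomerase of dividing cells, read 10.33, 10.41 and 10.41, and Mcm6, of the replicative helicase, read 10.35, 10.54 and 10.45. Gins1, Cdc20 and Tyms were not high, with means of 7.77, 7.76 and 6.92. Of the genes that govern entry into the cycle, 6 of 11 were high, both drivers and brakes. Ccnd1, the cyclin that CSF-1 is known to induce, read 10.91, 11.60 and 11.61, and the inhibitor gene Cdkn1a (p21) read 9.96, 10.49 and 10.59. Replicate 1 was the lowest in both. Cdkn2a and Cdkn2b, inhibitors tied to senescence, had means of 5.85 and 5.27.

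Of 27 inflammatory cytokine and chemokine genes, 8 were high and 11 near the low end, shares close to the 23.5% and 36.1% of all genes. Besides Ccl3, Ccl9 and Tnf, the monocyte attractants Ccl7 (9.11, 10.18 and 10.15) and Ccl2 (9.01, 10.01 and 9.80) and the IL-1 antagonist Il1rn (8.49, 8.40 and 8.45) were high. Il6 read 1.70, 1.48 and 1.48, Il1b read 3.13, 2.78 and 3.13, and Ifnb1, the gene of interferon beta, read 2.05, 1.70 and 2.66. Of 18 polarisation markers 2 were high (Mrc1 and Il4ra) and 12 were near the low end. Nos2, of classically activated macrophages, read 3.67, 3.61 and 3.70, and Arg1 and Retnla, of macrophages given IL-4, had means of 2.79 ± 0.098 and 1.36 ± 0.12 (SD, n = 3). Markers of both kinds of activation were therefore among the genes near the low end.

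Interferon-stimulated genes (ISGs), which cells switch on through the interferon receptors, were well represented and uneven between arrays. Of 23 genes, 13 were high and none was near the low end, against 23.5% and 36.1% of all genes. The element through which this response acts holds the letters GAAA in repeat. The letters GAAA and GAAA with any 2 bases between them, on either strand, were found in 3.15% of the 11894 promoters and in 9 of 17 ISG promoters (52.9%), counted as above. Ifit1, Cxcl10 and Bst2 are shown as ISGs that hold the element, with the matches in capitals. Their stretches are chr19:34640765-34640833, + strand, chr5:92349073-92349122, - strand, and chr8:71537567-71537622, - strand, in GRCm38.p6.
Ifit1: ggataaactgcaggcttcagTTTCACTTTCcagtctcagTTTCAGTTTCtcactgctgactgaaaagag
Cxcl10: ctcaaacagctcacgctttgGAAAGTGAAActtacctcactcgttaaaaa
Bst2: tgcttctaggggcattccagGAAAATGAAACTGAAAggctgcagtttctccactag
Ifit1, which binds foreign RNA, read 7.29, 8.18 and 8.20, Cxcl10, a chemokine, read 7.78, 8.80 and 8.59, and Bst2, which tethers virions, read 9.55, 10.50 and 10.48. The matches of Bst2 overlap. In each of the 3 genes replicate 1 was the lowest. Oasl1, Oasl2, Irf7 and Ifit2 are ISGs with no such letters in this window.

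Replicate 1 was below both other arrays in 23 of 23 ISGs, as it was in 39.5% of all genes. The mean deviation of the list from its 3-array mean was -0.58, 0.30 and 0.28 on the log2 scale in replicates 1, 2 and 3. Oasl1 read 6.24, 8.27 and 8.18, Zbp1, a nucleic acid sensor, read 6.26, 8.06 and 7.90, Mx1 read 4.68, 6.17 and 6.49, and Irf7, the TF that amplifies the interferon response, read 8.26, 9.54 and 9.67. In 6 of the 23 the range over the arrays was 1 log2 or more, a range that 2.29% of all genes had (341). Without replicate 1, 18 ISGs were high in place of 13. A gene must be high on every array used, so leaving out an array can only keep or raise this count. The rise is therefore no separate support for the lower values in replicate 1.

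Other lists moved with it. The monocyte list deviated by -0.48, 0.26 and 0.22, the complement genes by -0.23, 0.11 and 0.12, and integrins by -0.18, 0.10 and 0.08, whereas the pan-macrophage list deviated by 0.017, 0.003 and -0.019 and the lysosome list by -0.021, 0.016 and 0.005. The median of all genes was 5.64, 5.71 and 5.72, whereas over all 23332 clusters it was 5.07, 5.06 and 5.02. Which array had the lowest median thus depended on the clusters counted. With each array centred on its median of all genes, replicate 1 was below both others in 24.5% of all genes and above both in 51.2%. It was below both in 23 of 23 ISGs, in 10 of 12 monocyte genes and in 13 of 22 integrin and adhesion genes. The deviations of the pan-macrophage list in replicate 2 and of the lysosome list in every replicate changed sign when centred in this way, so that no direction can be given for them. Replicate 1 was below both others in 24 of 32 DNA replication and mitosis genes as deposited, and in 12 of 32 after centring. The part of these lists in the deviation of the ISGs was not tested.

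**Figure D4:**
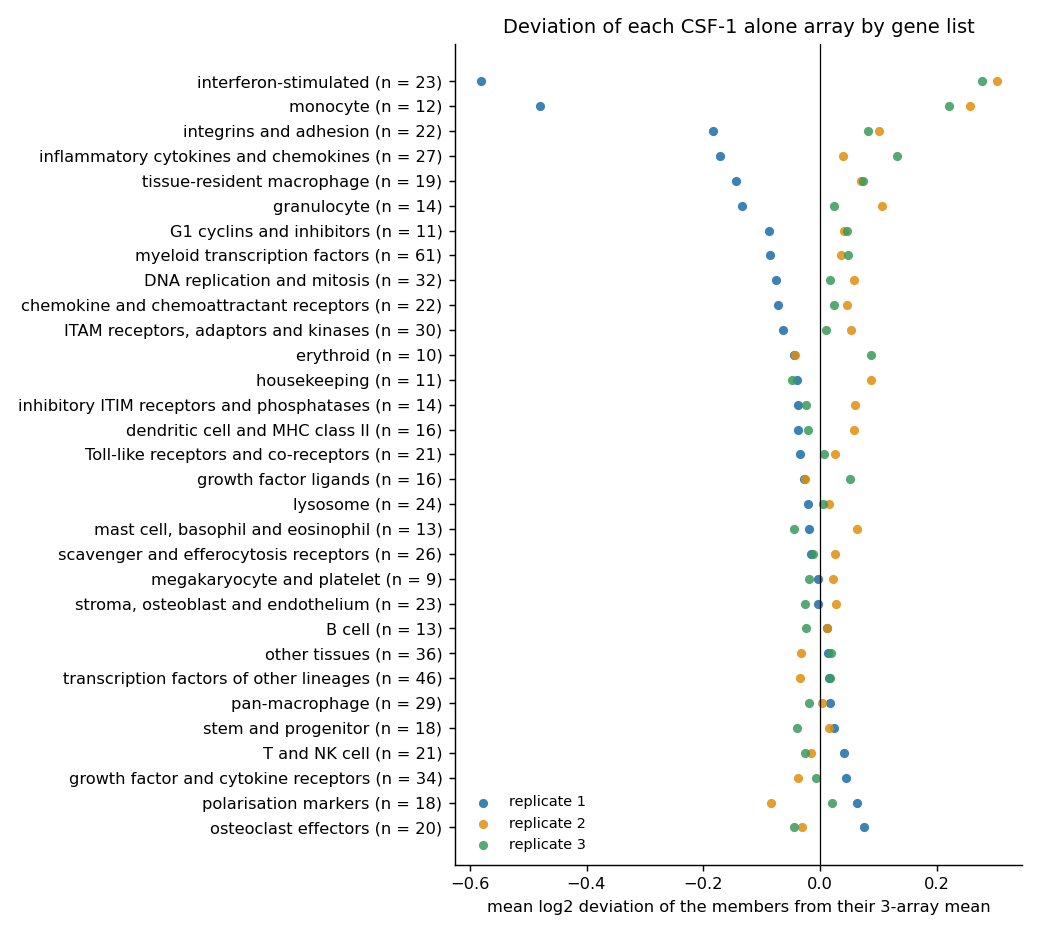
For each gene list with 9 or more genes, the mean log2 deviation of its members from their 3-array mean is shown for each CSF-1 alone replicate. Replicate 1 lies at -0.58 for ISGs and -0.48 for monocyte genes, and within 0.021 of 0 for pan-macrophage and lysosomal genes.

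The reverse was seen for genes of sterol and fatty acid synthesis, a list drawn up after the values had been seen and given here as counts. Of 26 genes measured, 18 were high, against 23.5% of all genes. Replicate 1 was above both other arrays in 24 of the 26, as it was in 25.1% of all genes. Fdps and Srebf2 were the exceptions. After centring it was above both in all 26, and in 51.2% of all genes. Scd1 and Scd2, desaturases that make oleic and palmitoleic acid, read 9.32, 6.77 and 6.67 and 11.55, 9.71 and 9.68. Hmgcs1 and Sqle, enzymes of cholesterol synthesis, read 10.02, 9.03 and 9.17 and 9.63, 9.05 and 8.94, and Insig1, a sterol-sensing regulator of the pathway, read 10.66, 9.70 and 9.80. The exporters Abca1 and Abcg1, which sterols are known to induce, were also highest in replicate 1. The mean deviation of the list was 0.48, -0.22 and -0.26. Scd1 and Scd2 are close paralogs, so shared probe signal between them is possible and was not tested.

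Across all genes the arrays were close. Pearson's r over the 14860 genes was 0.9944 for replicates 1 and 2, 0.9941 for 1 and 3, and 0.9963 for 2 and 3, given as a description across genes, which are not independent replicates. The median absolute difference between arrays was 0.11, 0.11 and 0.08 log2, and the median SD of a gene was 0.090. Of the 341 genes with a range of 1 log2 or more, 152 were not near the low end, and in 110 of those 152 replicate 1 was the array farthest from the others, higher in 38 and lower in 72. Without replicate 1 the 341 fell to 117. Among genes high on at least 1 array, the 10 largest ranges belonged to Scd1, Kit, Atp6v0d2, Oasl1, Dmpk, Itgal, Scd2, Zbp1, Cx3cr1 and the histone gene H4c14, from 2.65 to 1.59. In Dmpk, which encodes a protein kinase known from muscle, the values were 6.40, 8.32 and 8.32, and in H4c14 they were 7.03, 8.05 and 8.62. In all 10, replicate 1 was either the highest or the lowest of the 3.

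**Figure D5:**
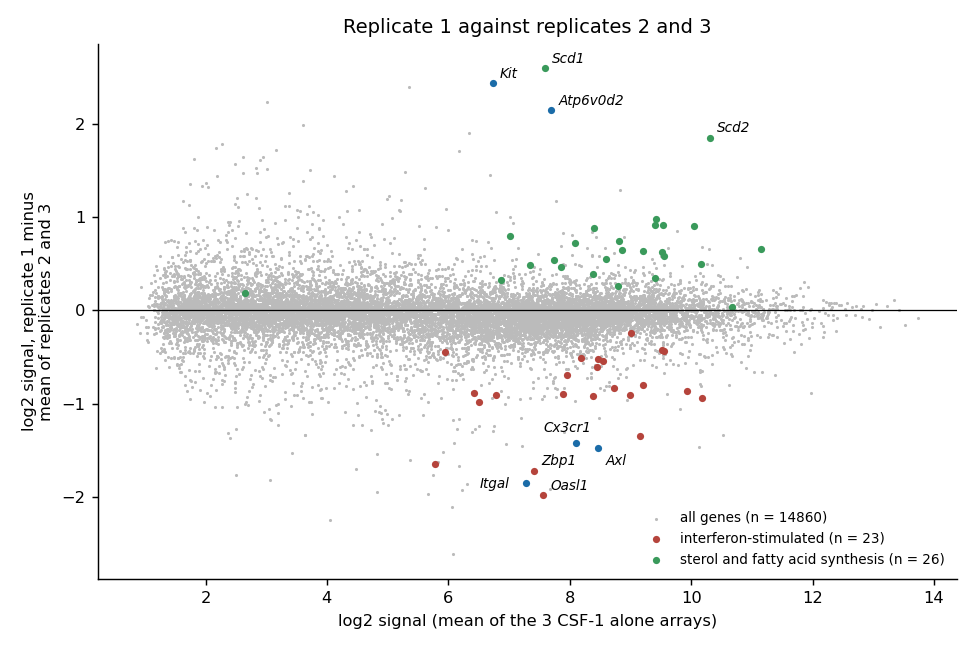
The log2 signal of replicate 1 minus the mean of replicates 2 and 3 is plotted against the mean log2 signal for 14860 genes (grey), with ISGs in red, sterol and fatty acid synthesis genes in green and other genes named in the text in blue. The 23 ISGs all lie below 0, while Scd1, Kit, Atp6v0d2 and Scd2 lie above it.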

How the data were processed

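MPs kept in CSF-1 alone were profiled on 3 Affymetrix Mouse Exon 1.0 ST arrays. The deposited values are log2 signals of transcript clusters, which the authors summarised by RMA (background correction, quantile normalization and median polish) in Affymetrix Expression Console, rounded to 2 decimals. No software version, annotation release or genome build was named in the sources used here. Quantile normalization makes the arrays alike in distribution, so a shift common to most genes cannot be seen. Detection above background was not analysed here, and depth has no meaning for arrays, whose number limits the precision.

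Of 23332 clusters, 14996 carried 1 symbol, 1019 several and 7317 none in the platform annotation. Clusters with several symbols were not used, so that genes such as Lyz2 and Ly6c2 have no value. The cluster with the highest mean stood for each of 135 symbols with more than 1. Percentiles and the bands (above the upper quartile, at or below the 95th percentile of the sensory receptor genes) were taken within each array over 14860 genes with Python 3.11.15, pandas 2.3.3 and numpy 2.4.6, on code tested on simulated data. No test was run, since 1 group was described, and the other arrays were not compared. The list of sterol and fatty acid genes and the centred counts were added after the values had been seen.

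The 34 gene lists (753 symbols, 127 without a usable cluster) were chosen with earlier results of these data known. Genes named were the lineage markers, the 20 highest means, up to 6 highest and 4 lowest members of each list, defining genes of a lineage, and the 10 largest ranges among genes high on at least 1 array. Any other gene named was chosen after its values were seen. Promoters, 1 per gene and none from chromosome 18, and their coordinates are from RefSeq, GRCm38.p6, and matches of a motif may overlap. Csf1r, Spi1 and Tyrobp have no promoter among those used. The alternatives tried were other bands, another choice of cluster, ranks over all clusters, median centring and leaving out each array.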

Additional observations from a re-analysis of the deposited data

How the results depend on the processing

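With the 90th percentile in place of the upper quartile, 1379 genes were high on all 3 arrays in place of 3499. With the lower quartile of the array as the low end 3464 genes lay near it, and with the 75th percentile of the sensory receptor genes 2386 did, in place of 5371. The other alternatives kept both counts within 1.5 times. Genes with a range of 1 log2 or more numbered 152 when those near the low end were left out, and between 117 and 208 when an array was left out, in place of 341. Leaving out an array takes away a pair of values, which by itself lowers a range.

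The counts of high pan-macrophage (26) and lysosomal (24) genes did not move when any array was left out. A count over fewer arrays can only stay or rise, and all 24 lysosomal genes were already high. The lysosomal count thus could not move, and the pan-macrophage count could not fall. Over all lists and alternatives, 13 of the 238 counts of high members and 56 of the 272 counts near the low end moved by over 1.5 times, most of them under the stricter bands. Of the 170 median percentiles by list and alternative, 44 were counted as moved. Of these, 30 came from ranks over all clusters, so the percentiles given here hold for ranks among single-symbol genes. Of the 102 mean deviations by list and array, 1 moved by more than its spread when arrays were centred on their medians. That centring also changed the sign of 28 deviations, none of them larger than 0.045 as deposited, and those of the ISG, monocyte, complement and integrin lists in replicate 1 kept theirs (-0.53, -0.43, -0.18 and -0.13). No paired analysis was possible because the report describes 1 group and no result comes from a test.

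The arrays hold 3 values per gene, so an array that stands apart cannot be told from a wide spread between cultures.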
